A study of Mus musculus with 2 samples.

Results

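CD8 T cells are the killer lymphocytes of a tumour, and 336 barcodes of 23585 kept in the 2 libraries met the transcript rule used to select them here. A cell was taken as CD8 when its barcode had at least 2 unique molecular identifiers (UMIs, tags that count 1 captured transcript each) from Cd3e, Cd3d and Cd3g together, at least 2 from Cd8a and Cd8b1 together, none from Cd4 or Foxp3, and fewer than 100 UMIs per 10000 from a sum of 5 phagocyte genes (Apoe, Lyz2, C1qa, C1qb and C1qc). The selected cells were 202 of 12112 kept barcodes from Glut5 KO mice and 134 of 11473 from wildtype mice. Both libraries hold CD45+ leukocytes, taken with magnetic beads 14 days after CT-2A cells, a glioma line of the mouse, were placed in the brain. Glut5, encoded by Slc2a5, is a fructose transporter, and the comparison asks what its loss in the host does to the immune cells around the tumour. There was 1 library per genotype, with 16000 cells loaded each. The cells were thus selected on measured values, those of the 3 Cd3 genes, the 2 Cd8 genes, Cd4, Foxp3 and the phagocyte genes, whose levels below are a description and not a result.

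The CD8 molecule is a co-receptor that holds the T cell receptor on class I MHC, the platform on which nearly every cell shows fragments of its own proteins. A CD8 cell that meets its fragment divides and arms itself with perforin, which opens the membrane of the target, and with granzymes, proteases that kill it from within. In tumours the fragment does not go away, and CD8 cells that are stimulated for long carry inhibitory receptors such as PD-1 and LAG-3, lose part of their output and are called exhausted, while a smaller pool with the transcription factor TCF-1 keeps the capacity to renew itself.

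The groups were Glut5 KO, the name on the sample labels (knockdown in the design text), and wildtype. The sources used here do not give the strain, the age, how many animals were behind a library or in which cells the gene was deleted. Among the CD8 cells, 81 in Glut5 KO and 65 in wildtype had Y-linked UMIs and no Xist UMI, and are called male below. Another 34 in Glut5 KO and 22 in wildtype had Xist and no Y-linked UMI, and are called female, so each library held cells of both sexes. Both kinds of UMI were found in 21 and 7 CD8 cells, and neither kind in 66 and 40. With 1 library per genotype there is no replicate check and no test. Every difference is one between these 2 libraries, genotype cannot be told apart from library, and the values in square brackets are exact 95% intervals for counting error, the one kind of error they cover.

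Depth was 96851696 UMIs over 12165 Glut5 KO barcodes and 116105873 over 11495 wildtype barcodes before filters. CD8 cells had medians of 8108 UMIs and 2750.5 genes in Glut5 KO and 9954.5 UMIs and 3053 genes in wildtype. No CD8 cell of either library had an Slc2a5 UMI (chromosome 4, 150119283 to 150144169, GRCm38), which with 3 counts as the limit allows up to 1.39 CPM in Glut5 KO and 2.02 CPM in wildtype, CPM being UMIs per 1e6 UMIs summed over the cells of a group. In phagocytes, barcodes with no Cd3 UMI and at least 100 per 10000 of the C1qa to Apoe sum, Slc2a5 was at 0 CPM in Glut5 KO and 4.36 CPM in wildtype, so the gene that tells the genotypes apart was read in other cells than these. The libraries had 188 barcode sequences in common, which 2 Glut5 KO and 1 wildtype CD8 cells carried, and no sequence was that of a CD8 cell in both.

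Of the 5 marker genes of CD8 T cells the rule used 3, whose levels describe the selection and do not check the name. Among those 3, Cd8b1 stood at 1005 CPM in Glut5 KO and 681 CPM in wildtype CD8 cells, against 7.05 and 4.79 CPM in phagocytes. Pdcd1, which encodes PD-1 and was not in the rule, stood above its level in other T cells in both libraries. Ifng, the gene of interferon-gamma, was lower than in other T cells in both libraries when UMIs were summed, as given below. Counted in cells thinned to 1000 UMIs it was in 5.03% of CD8 against 6.198% of other T cells in Glut5 KO and in 2.99% against 4.94% in wildtype, with overlapping intervals, and without thinning in 23.8% against 17.2% and in 20.9% against 13.7%. A transcript of the alpha-beta T cell receptor constant genes (Trac, Trbc1 or Trbc2) was found in 166 of 202 Glut5 KO and 114 of 134 wildtype CD8 cells, and Trdc, of the gamma-delta receptor, in 6 and 3. The cells at the edge of the rule differed in depth: the 22 Glut5 KO and 11 wildtype cells with exactly 2 Cd8 UMIs had medians of 3204.5 and 10254 UMIs, and the 31 and 10 barcodes left out with 1 Cd8 UMI had 3243 and 8609.5.

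Some CD8 barcodes also held transcripts that belong to other cells. Genes of class II MHC, which antigen-presenting cells use, reached 100 UMIs per 10000 in 57 Glut5 KO (28.2%) and 42 wildtype (31.3%) CD8 cells, which were deeper than the rest (medians of 11577 and 14680.5 UMIs). Jchain, an antibody-secreting cell gene, had 100 UMIs or more in 7 Glut5 KO and 0 wildtype CD8 cells, and the 4 plasma cell markers summed to 3765 CPM in Glut5 KO and 15.5 CPM in wildtype, where Jchain itself was at 0. Of the 4 B cell markers all were found in Glut5 KO (146 CPM together), while 2 of them, Cd79a included, were at 0 in wildtype (8.08 CPM together). Ncr1 or Klrb1c, receptor genes of natural killer (NK) cells, had a UMI in 6 Glut5 KO and 21 wildtype CD8 cells. The 7 phagocyte markers, all found in both libraries, summed to 1356 CPM in Glut5 KO and 2828 CPM in wildtype. Neutrophil and erythroid markers were at 0 in both. The 21 Glut5 KO and 7 wildtype CD8 cells with both Xist and Y-linked UMIs had medians of 12209 and 22970 UMIs. Their medians of class II MHC were 192 and 348 UMIs per 10000. Leaving out every cell with high class II MHC, 100 or more Jchain UMIs, or an Ncr1 or Klrb1c UMI leaves 136 Glut5 KO and 80 wildtype CD8 cells, called cells without other types' transcripts below, and values from them are given where they differ.

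CD8 cells were a larger share of the Glut5 KO suspension and not of its T cells. They made up 1.67% [1.45 to 1.91] of Glut5 KO and 1.17% [0.979 to 1.38] of wildtype barcodes, a ratio of 1.43 [1.14 to 1.79]. Among all barcodes that passed the Cd3 and phagocyte limits (817 in Glut5 KO and 446 in wildtype) they were 24.7% [21.8 to 27.8] in Glut5 KO and 30.04% [25.8 to 34.5] in wildtype, a ratio of 0.823 [0.658 to 1.03] whose interval holds 1. Conventional CD4 cells, with Cd4 and neither Foxp3 nor Cd8 UMIs, stood at 1.28% and 0.558% of barcodes (ratio 2.29 [1.70 to 3.12]), and Foxp3 cells, the regulatory T cells that restrain others, at 0.908% and 0.331% (ratio 2.74 [1.88 to 4.08]). The share of barcodes rests on the phagocyte limit, which alone kept out 70 Glut5 KO and 131 wildtype barcodes: with no such limit the counts were 272 and 265, and the log2 ratio of shares was −0.04 in place of 0.51. Without the cells that use the receptor gene Trbv16, described below, 135 and 116 CD8 cells were left. The log2 ratio of their shares of barcodes was 0.15. A bead-selected suspension gives shares of cells and not numbers of cells in a tumour.

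**Figure D1:**
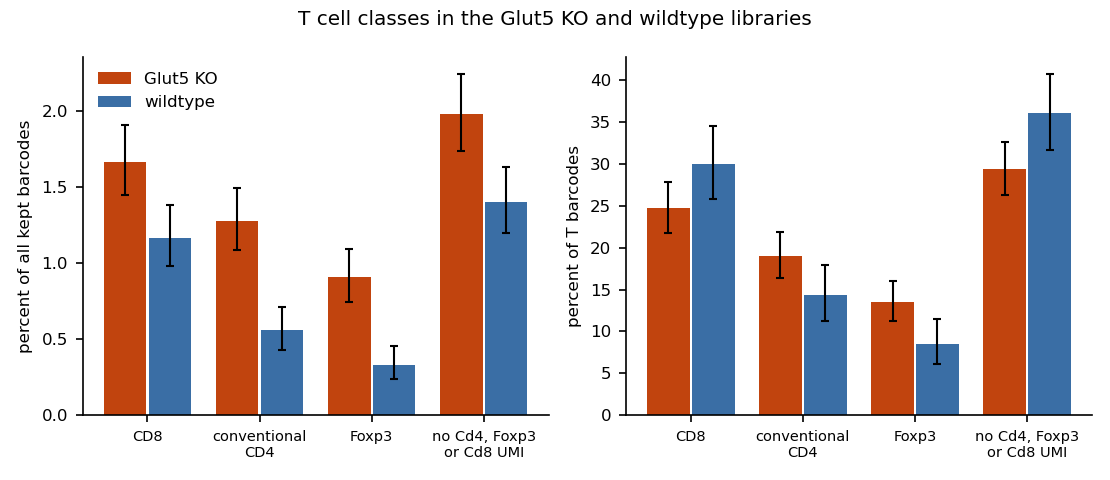
T cell classes as a percent of all kept barcodes (left) and of T barcodes (right), Glut5 KO in orange and wildtype in blue, 1 library each, with bars for exact 95% counting intervals. CD8 cells are 1.67% and 1.17% of barcodes, and 24.7% and 30.04% of T barcodes, and the CD4 and Foxp3 classes differ more.

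The next question was what sets CD8 cells apart from the other T cells of the same tumour, which are T barcodes with no Cd8 UMI (505 in Glut5 KO and 263 in wildtype, with medians of 5983 and 7699 UMIs). CD8 cells had more of the cytotoxic granule genes Gzmk, Nkg7 and Gzmb, of the inhibitory receptor genes Pdcd1 and Lag3 and of cell division genes. They had less of the cytokine genes Ifng, Csf2 and Tnf and of the checkpoint gene Ctla4. A gene is called higher or lower here when its log2 ratio passed 1.5-fold in the same direction in both libraries, which is a size and not a test. Over all 9515 genes with at least 20 UMIs over both kinds of cell in each library, 237 were called higher (2.49%) and 371 lower (3.90%), and the median ratio was −0.03 in Glut5 KO and −0.01 in wildtype.

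Gzmk (chromosome 13, 113171608 to 113225908), a granzyme typical of CD8 cells that have been activated without ending as full killers, had the highest mean ratio over other T cells of the genes with at least 100 UMIs, outside the Cd8 genes, the antigen receptor genes and the markers of other cell classes. It had 131 CPM in CD8 cells against 17.6 CPM in other T cells in Glut5 KO, and 133 against 11.2 CPM in wildtype, log2 ratios of 2.89 [2.53 to 3.28] and 3.54 [2.98 to 4.20]. Nkg7, which helps granules to leave the cell, had 1846 against 745 CPM in Glut5 KO and 1531 against 711 CPM in wildtype (1.31 and 1.11). Gzmb, the main killing granzyme, had 2052 against 787 CPM in Glut5 KO and 1402 against 825 CPM in wildtype (1.38 and 0.77), and Ccl5, a chemokine gene of memory CD8 cells, had 3178 against 1689 CPM and 4583.5 against 2533 CPM (0.91 and 0.86). These 4 genes were the members of the effector list called higher, of 22 measured. Prf1, perforin itself, passed in Glut5 KO (1.61) and stood just under the limit in wildtype (0.57). Without the cells that use the receptor gene Trbv16, described below, Gzmb stood at 0.44 in Glut5 KO, under the limit, and at −0.22 with cells of 10 or more division UMIs per 10000 left out, while Gzmk (3.02), Ccl5 (1.005) and Nkg7 (0.95) stayed above it.

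The cytokines of the same list went the other way. Ifng had 61.7 against 147 CPM in Glut5 KO and 37.0 against 143 CPM in wildtype, log2 ratios of −1.25 [−1.53 to −0.98] and −1.94 [−2.39 to −1.54]. In female cells alone the Glut5 KO ratio was 1.08. Tnf stood at −0.85 and −1.22, and Csf2, a growth factor for myeloid cells, at −5.05 and −4.19, with 0.928 and 0.673 CPM in CD8 cells. The remaining 2 of the 5 members called lower, Gzmc and Gzmf, are granzymes that NK cells also make, and they turned with the cells counted. Gzmc had 48.7 against 253 CPM in Glut5 KO and 186 against 911 CPM in wildtype (−2.37 and −2.29). Among cells without other types' transcripts its ratios were 0.55 and 4.87, and that of Gzmf in Glut5 KO was 6.74, against −1.28 over all cells, on 39 UMIs in CD8 cells. In each library a large part of the Gzmc and of the Gzmf UMIs of CD8 cells came from 1 cell, as given below. These ratios may thus rest on few cells. An Ncr1 or Klrb1c UMI was found in 73 of 505 Glut5 KO and 71 of 263 wildtype other T cells, 14.5% and 27.0%, against 2.97% and 15.7% of CD8 cells. The median of the list moved too: it was −0.29 over 23 genes in Glut5 KO and −0.04 over 22 in wildtype, and 0.44 and 0.29 among cells without other types' transcripts. The part of these cells in the result was not tested.

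Gzma, a granzyme of both CD8 and NK cells, differed in direction between the libraries when UMIs were summed. It had 575 against 268 CPM in Glut5 KO and 301 against 765 CPM in wildtype, log2 ratios of 1.10 and −1.35. Without cells carrying other types' transcripts the ratios were 3.43 and 0.08. In Glut5 KO CD8 cells 24.9% of its UMIs came from 1 cell, and the share of cells with a Gzma UMI, given below, was higher in CD8 than in other T cells of both libraries, with overlapping intervals.

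Of 25 measured genes of the exhaustion and checkpoint list, Pdcd1, Lag3 and Rgs16 were called higher and Ctla4 and Btla, a pair of inhibitory receptor genes, lower. Pdcd1 (chromosome 1, 94038305 to 94052553) had 514 against 254 CPM in Glut5 KO and 390 against 167 CPM in wildtype (1.02 [0.90 to 1.14] and 1.22 [1.04 to 1.41]). Lag3 (chromosome 6, 124904361 to 124911705), an inhibitory receptor that binds class II MHC, had 204 against 132 CPM and 98.9 against 33.6 CPM (0.63 and 1.56). Rgs16, a damper of chemokine receptor signals, stood at 0.78 and 1.14. Without Trbv16 cells, described below, these 3 genes stood under the limit in Glut5 KO, with Pdcd1 at 0.57, Lag3 at 0.08 and Rgs16 at 0.09. Ctla4, the checkpoint receptor that regulatory T cells carry at high level, had 296 against 571 CPM in Glut5 KO and 155 against 302 CPM in wildtype (−0.94 and −0.95), and the other T cells include the Foxp3 cells. Btla stood at −0.68 and −0.61. The median of the list was −0.09 in Glut5 KO and 0.39 in wildtype, so its genes did not lie on 1 side in both libraries.

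Of 21 measured genes of naive and memory cells, Ly6c2, a surface marker of memory CD8 cells, was called higher (1.496 and 0.70) and 3 were called lower. Among these was Nsg2, with 7.42 against 14.8 CPM in Glut5 KO and 4.71 against 15.8 CPM in wildtype (−0.97 [−1.89 to −0.19] and −1.66 [−3.15 to −0.56]), and Il6ra, the gene of the interleukin-6 receptor, at −0.89 and −0.71. The median of the list was −0.49 in Glut5 KO and −0.43 in wildtype. Tcf7, the gene of TCF-1, was not called, with 52.0 against 67.3 CPM and 70.0 against 77.1 CPM (−0.37 and −0.14). Division genes were higher: 12 of 36 passed in both libraries and none was called lower, with medians of 0.92 in Glut5 KO and 0.57 in wildtype. Against conventional CD4 cells alone those medians were 0.59 and 0.20. With high class II MHC cells left out on both sides, 3 of 36 passed in both libraries (medians 0.98 and 0.34), and none was lower, where 2.31% of all genes were higher and 4.92% lower.

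Among all genes with at least 100 UMIs, the 12 with the highest mean ratio also held Atp8b4, Abcb9, Tmem163, Setbp1, Rpa2, a subunit of the protein that covers single-stranded DNA, and the histone genes Hist1h2ae and Hist1h1b, with ratios between 0.48 and 1.91. The 12 lowest were led by Penk, which encodes enkephalin, at 0.464 against 122 CPM in Glut5 KO and 2.69 against 88.7 CPM in wildtype (−7.46 and −4.88). Ccr8 and Izumo1r, receptor genes of regulatory T cells, Maf, Lta, Tnfrsf4, the gene of the costimulatory receptor OX40, Ccl22, Tnfsf11, Rora and Rgcc made up most of the rest, between −3.84 and −1.22.

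**Figure D2:**
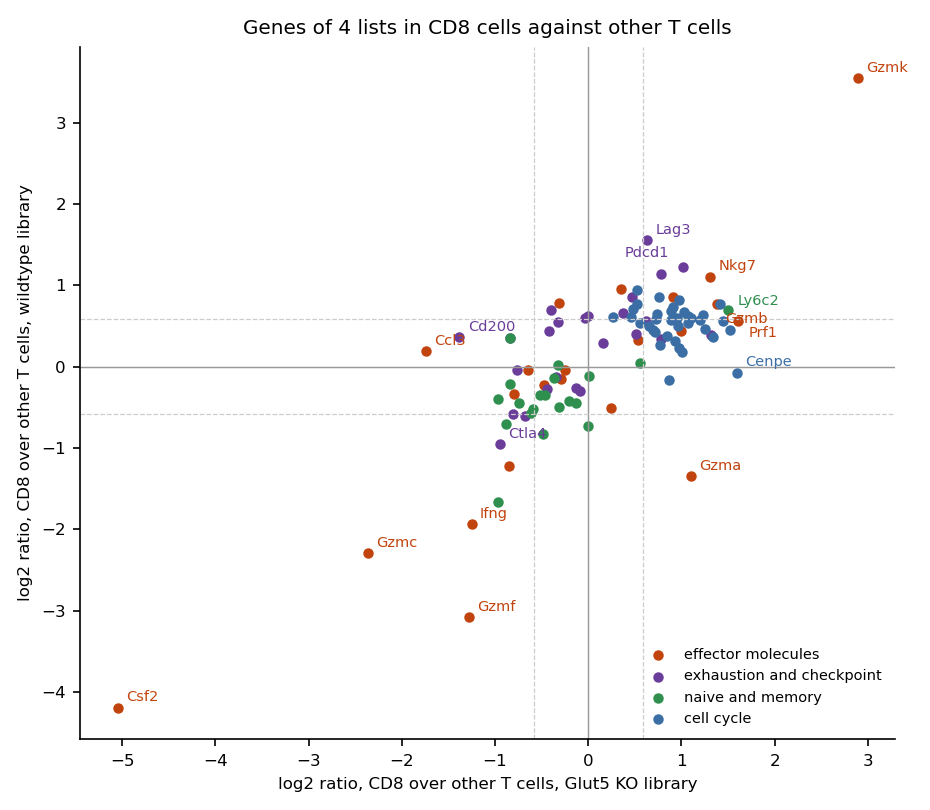
Each point is 1 gene of 4 lists, placed by its log2 ratio of CD8 over other T cells in the Glut5 KO library (x axis) and in the wildtype library (y axis), with dashed lines at 1.5-fold. Gzmk is furthest up in both (2.89 and 3.54), Csf2 furthest down, division genes sit above 0 in most cases, and Gzma stands at 1.10 and −1.35.

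Counted per cell, with every cell thinned to 1000 UMIs, the shares with Gzmb, Gzmk and Pdcd1 were again higher in CD8 than in other T cells, and that with Ctla4 lower. Thinning left out 3 Glut5 KO and 0 wildtype CD8 cells, and 21 and 0 other T cells. Gzmb was found in 48.2% of CD8 against 28.1% of other T cells in Glut5 KO, and in 43.3% against 23.6% in wildtype, with 1.501% and 0.65% in phagocytes of the 2 libraries, whose medians were 7307 and 9300 UMIs. Gzmk was found in 8.04% against 1.03% in Glut5 KO and in 11.9% against 0.38% in wildtype, with 0.03% in phagocytes of each. Pdcd1 was found in 38.7% against 24.4% in Glut5 KO and in 26.1% against 15.2% in wildtype (phagocytes 0.65% and 0.59%). Ctla4 was found in 25.1% against 36.6% in Glut5 KO and in 14.9% against 23.2% in wildtype. Tigit, another inhibitory receptor gene, was found in 14.6% against 24.0% and in 11.9% against 13.3%. At 2000 UMIs Tigit was not lower in CD8 cells, with 36.1% against 34.7% in Glut5 KO and 26.7% against 25.3% in wildtype. Before thinning its shares were 66.3% against 54.5% and 64.9% against 46.4%. Gzma was found in 14.1% [9.56 to 19.7] against 8.47% [6.15 to 11.3] in Glut5 KO and in 14.2% [8.76 to 21.3] against 9.89% [6.56 to 14.1] in wildtype. Tcf7 was in 4.52% of Glut5 KO and 13.4% of wildtype CD8 cells at 1000 UMIs (0.19% and 0.18% of phagocytes), and in 13.6% and 13.0% at 2000 UMIs. The gap between libraries was thus not there at 2000 UMIs, but each depth is 1 random draw, and the draws do not settle it. Havcr2, the gene of the inhibitory receptor TIM-3, was in 8.04% of CD8 against 3.51% of other T cells in Glut5 KO and in 4.48% against 4.18% in wildtype. Phagocytes, with 8.56% and 7.27%, have more of it than other T cells. Before thinning, the shares of CD8 cells in Glut5 KO and wildtype were 72.8% and 70.1% for Gzmb, 34.2% and 45.5% for Gzmk, and 25.2% and 38.8% for Tcf7.

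The T cell receptor was then read, as far as 5' transcripts show which V gene its beta chain uses. One V gene, Trbv16 (chromosome 6, 41151740 to 41152230), led in 67 of 163 Glut5 KO CD8 cells with a call, 41.1% [33.5 to 49.1], and in 18 of 113 in wildtype, 15.9% [9.72 to 24.0]. A call needs at least 2 UMIs of 1 Trbv gene and no tie, and 20 Trbv genes were used in all. The next genes were Trbv19, with 20 cells (12.3%) in Glut5 KO and 14 (12.4%) in wildtype, Trbv13-1 with 11 and 10, and Trbv13-2 with 8 and 9. Trbv12-2 led in 1 Glut5 KO and 13 wildtype cells (0.613% and 11.5%). In other T cells Trbv16 led less often, with 9 of 292 calls (3.08%) in Glut5 KO and 11 of 145 (7.59%) in wildtype, and in conventional CD4 cells it led in 2 of 111 and 1 of 48. In Foxp3 cells it led in 2 of 81 in Glut5 KO and in 4 of 22 in wildtype, 18.2% [5.19 to 40.3], a share as high as that of wildtype CD8 cells. The files hold no joined receptor sequences, so whether the Trbv16 cells of a library descend from 1 cell was not tested.

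The Trbv16 cells of the Glut5 KO library were also compared on features that the call did not use. The constant gene was Trbc2 in 47 of 67 (70.1% [57.7 to 80.7]) and Trbc1 in 3 (4.48% [0.933 to 12.5]). Of 96 Glut5 KO cells with another Trbv gene, 58 had Trbc2 (60.4% [49.9 to 70.3]) and 17 had Trbc1 (17.7% [10.7 to 26.8]). Both pairs of intervals overlap. Among the Trbv16 cells, Y-linked UMIs without Xist were found in 38 and Xist without Y-linked UMIs in 2, against 32 and 27 of the 96. In wildtype, Trbv16 cells were 10 and 1, against 51 and 15 of 95 with another Trbv gene, so in both libraries the Trbv16 cells whose sex could be read were nearly all male. The number of animals is unknown. A UMI of any Trav gene was found in 25 of 67 (37.3%), against 60 of 96 (62.5%). The wildtype Trbv16 cells had Trbc2 in 15 of 18, Trbc1 in 2 and a Trav UMI in 12, against 62, 24 and 74 of 95.

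Trbv16 cells of the Glut5 KO library had more killing and inhibitory genes and fewer naive genes than Glut5 KO cells with another Trbv gene. The split was chosen after the shares had been seen, and the ratios are given as sizes. Gzmb had 3657 against 999 CPM (log2 1.87 [1.77 to 1.97]), Gzma 967 against 341 CPM (1.502), Lag3 310 against 127 CPM (1.28) and Pdcd1 738 against 370 CPM (0.997). Tcf7 had 11.0 against 75.04 CPM (−2.70 [−3.95 to −1.78]), and S1pr1, the receptor with which T cells leave tissues, 2.44 against 39.3 CPM (−3.71). Of 7855 genes measured, 11.5% were higher by 1.5-fold and 12.2% lower. Against that, 10 of 21 effector genes were higher and none lower, 10 of 25 exhaustion genes were higher and 2 lower, 12 of 19 naive and memory genes were lower and 1 higher, and 23 of 36 division genes were higher and none lower. Their medians were 0.53, 0.52, −1.06 and 0.68, against 0.04 over all genes.

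The 18 wildtype Trbv16 cells did not repeat the pattern in full. Gzmb was lower there, with 480 against 1706 CPM (−1.82 [−2.11 to −1.56]), as was Ly6c2, with 405 against 1380 CPM (−1.76). Pdcd1 (591 against 376 CPM, 0.65) and Tox (282 against 108 CPM, 1.39), a transcription factor of exhausted CD8 cells, were higher, and the naive and memory median was −0.77. Counted in cells thinned to 1000 UMIs, Gzmb was in 71.6% of Trbv16 against 42.1% of other Trbv cells in Glut5 KO, and in 38.9% against 46.3% in wildtype. Tnfrsf9, the gene of the costimulatory receptor 4-1BB, was in 19.4% against 3.16% in Glut5 KO and in 44.4% against 14.7% in wildtype.

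**Figure D3:**
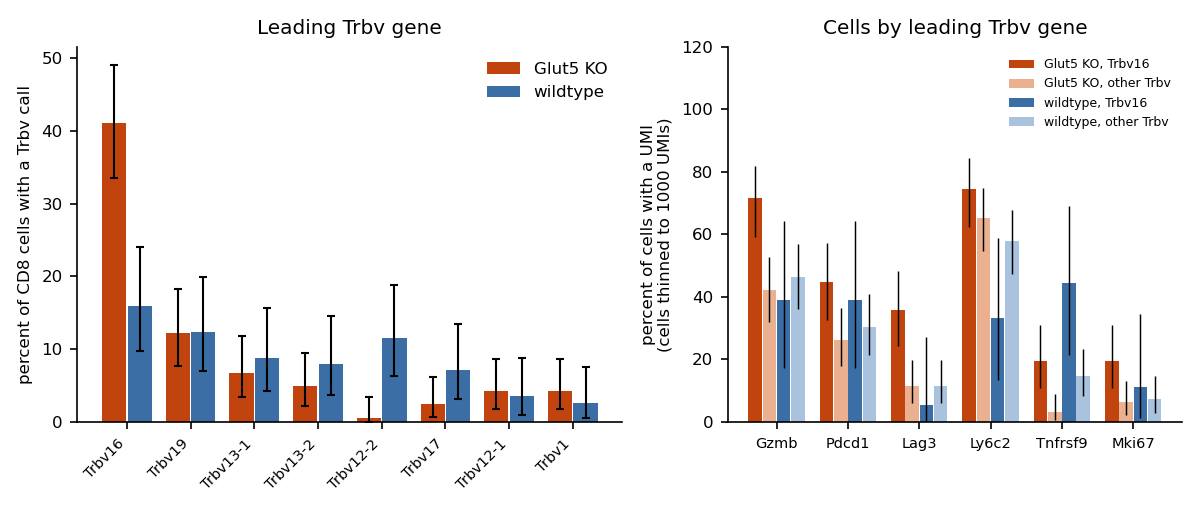
Left, the leading Trbv gene as a percent of CD8 cells with a call, Glut5 KO in orange and wildtype in blue. Right, the percent of cells with a UMI of 6 genes after thinning to 1000 UMIs, by library and leading Trbv gene (pale bars, other Trbv genes), with lines for exact 95% counting intervals; Gzmb is in 71.6% of Glut5 KO Trbv16 cells and in 38.9% to 46.3% of the other 3 groups.

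The main comparison of the study, Glut5 KO over wildtype, was then made within CD8 cells, and because the libraries differ in Trbv16 it is given with all CD8 cells and without the Trbv16 cells (135 Glut5 KO and 116 wildtype). Genes of mitosis, the inhibitory receptor genes Lag3 and Ctla4, and Gzma were higher in Glut5 KO, and receptor genes shared with NK cells and the granzyme inhibitor genes Serpinb9 and Serpinb6b were lower. The excess of Gzma was not seen without Trbv16 cells, and the excess of mitosis genes was smaller. Lag3 and Ctla4 were higher in the other T cells of Glut5 KO as well. As a list, the receptor genes shared with NK cells were near level without other types' transcripts, where Tyrobp was still lower, as given below. Of 9419 genes with at least 20 UMIs, 962 were at least 1.5-fold higher in Glut5 KO (10.2%) and 865 lower (9.18%), with a median of 0.01. Without Trbv16 cells the shares were 11.0% and 8.48% of 8713 genes.

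Cell division genes stood out as a list: 21 of 36 were higher in Glut5 KO and none lower, with a median of 0.66. The higher ones were mostly those of mitosis and the time just before it. Of 23 such genes 19 were higher (median 0.82), while of 13 genes that copy DNA in S phase 2 were (median 0.14), a division of the list made after its values had been seen. Mki67, the usual marker of cycling cells, had 251 CPM in Glut5 KO and 123 CPM in wildtype (1.02 [0.78 to 1.28]). Top2a, which untangles chromosomes, had 280 and 138 CPM (1.02), Ube2c, which marks proteins for destruction at the end of mitosis, 325 and 156 CPM (1.05), and Cenpe, a motor that aligns chromosomes, 69.1 and 21.5 CPM (1.67 [1.12 to 2.28]). The Mcm genes, subunits of the helicase that opens DNA for copying, were level: Mcm2 had 68.2 CPM in Glut5 KO and 76.7 CPM in wildtype (−0.17 [−0.53 to 0.20]) and Mcm5 95.6 and 94.2 CPM (0.02 [−0.30 to 0.34]).

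The promoters of these genes differ in known control elements, and 4 are shown, those of 2 mitosis genes that were higher and of 2 replication genes that were not called. Each line gives the 160 bases before the start of the gene, on the strand of the gene, from RefSeq on GRCm38.p6, with Top2a at chr11:99024190-99024349 (minus strand), Ube2c at chr2:164769769-164769928 (plus), Mcm5 at chr8:75109349-75109508 (plus) and Mcm6 at chr1:128359706-128359865 (minus). Capitals mark the element TTTGAA, read as TTCAAA on the other strand and known as CHR, in the mitosis genes, and an E2F element in the Mcm genes.
Top2a: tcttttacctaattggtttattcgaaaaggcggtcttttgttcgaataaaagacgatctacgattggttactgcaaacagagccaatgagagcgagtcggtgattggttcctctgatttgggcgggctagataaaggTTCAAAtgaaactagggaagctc
Ube2c: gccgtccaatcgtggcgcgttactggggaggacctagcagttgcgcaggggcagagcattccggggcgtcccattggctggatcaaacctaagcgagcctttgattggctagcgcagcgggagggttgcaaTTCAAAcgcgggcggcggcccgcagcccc
Mcm5: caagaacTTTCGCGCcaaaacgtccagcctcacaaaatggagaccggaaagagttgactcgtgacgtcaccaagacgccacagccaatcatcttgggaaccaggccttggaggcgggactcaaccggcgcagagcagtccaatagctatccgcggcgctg
Mcm6: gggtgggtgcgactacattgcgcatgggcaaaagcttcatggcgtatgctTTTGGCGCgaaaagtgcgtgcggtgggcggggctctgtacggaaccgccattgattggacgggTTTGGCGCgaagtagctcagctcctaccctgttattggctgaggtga

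CHR is the element through which a repressor complex keeps mitosis genes silent in resting cells, and E2F factors drive the genes of S phase. The letters TTTGAA, on either strand of the promoter window given by RefSeq, were found in 13 of 18 mitosis genes, 1 of 11 replication genes and 18.1% of all 27025 promoters. An E2F element, searched as TTTCGCGC, TTTGGCGC or TTTCCCGC on either strand, was found in 1 of 18, 5 of 11 and 1.91%. CCAAT, which serves both groups, was in 15 of 18, 9 of 11 and 37.9%. Of the 36 genes 29 matched a promoter. A match in letters is a description of these windows and not a site shown to be bound.

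Counted in cells, 62 of 202 Glut5 KO CD8 cells (30.7% [24.4 to 37.6]) and 26 of 134 wildtype CD8 cells (19.4% [13.1 to 27.1]) had at least 50 UMIs per 10000 from the division list and are called dividing. The intervals overlap. The order was the same at limits of 25 (40.1% and 30.6%), 75 (23.3% and 17.2%) and 100 (18.8% and 11.2%). In other T cells the shares were 12.5% in Glut5 KO and 9.13% in wildtype. Those include T barcodes with no Cd4, Foxp3 or Cd8 UMI, of which 2.5% and 3.73% were dividing. Conventional CD4 cells stood at 19.4% [13.5 to 26.5] and 18.75% [10.1 to 30.5], and Foxp3 cells at 24.5% [16.8 to 33.7] and 15.8% [6.02 to 31.3]. In wildtype the share of CD8 cells was thus close to that of conventional CD4 cells. Much of the difference between the CD8 cells of the libraries sat in the Trbv16 cells. In Glut5 KO 31 of 67 were dividing (46.3% [34.0 to 58.9]) against 23 of 96 cells with another Trbv gene (24.0%). In wildtype 4 of 18 were (22.2%) against 21 of 95 (22.1%). Without Trbv16 cells 23.0% [16.2 to 31.0] of Glut5 KO and 18.97% [12.3 to 27.3] of wildtype CD8 cells were dividing, 8 of 36 division genes were higher and the median of the list was 0.23. The sexes differed too, with 46.9% of 81 male Glut5 KO and 24.6% of 65 male wildtype cells dividing, against 23.5% of 34 female Glut5 KO and 22.7% of 22 female wildtype cells. In female cells alone the median of the list was −0.29. Among male Glut5 KO cells, 24 of 38 Trbv16 cells (63.2% [46.0 to 78.2]) and 14 of 43 others (32.6% [19.1 to 48.5]) were dividing. Outside Trbv16, 14 of 43 male and 8 of 32 female Glut5 KO cells were dividing, and 13 of 55 male and 5 of 21 female wildtype cells, a split chosen after values had been seen.

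**Figure D4:**
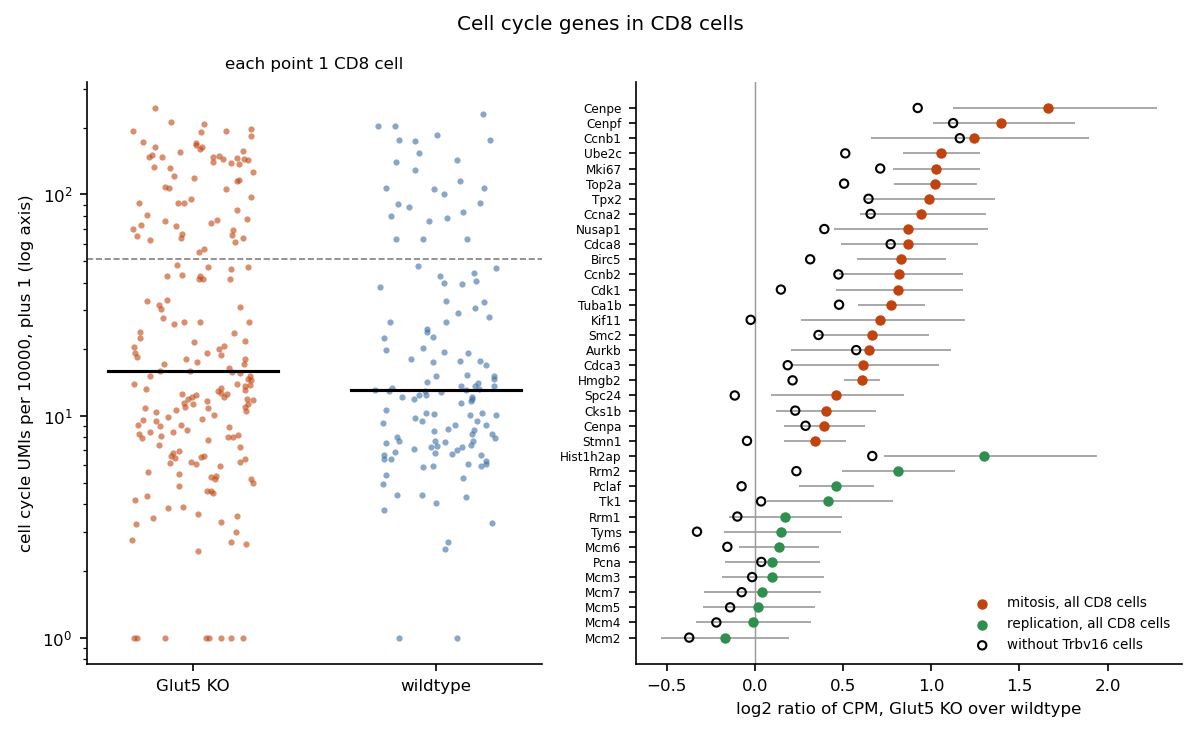
Left, UMIs of the 36 division genes per 10000 UMIs, plus 1, in each CD8 cell on a log axis, with the median as a line and the limit of 50 dashed. Right, the log2 ratio of each gene, Glut5 KO over wildtype, with exact 95% counting intervals, and open circles without Trbv16 cells; mitosis genes lie between 0.34 and 1.67, and most Mcm genes lie near 0.

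Killing and cytokine genes did not move as a group. Of 22 measured effector genes 5 were higher in Glut5 KO and 4 lower, with a median of −0.11, and without Trbv16 cells 1 was higher and 5 lower of 21, with a median of −0.05. Gzma had 575 CPM in Glut5 KO and 301 CPM in wildtype (0.93 [0.78 to 1.09]), and without Trbv16 cells its ratio was −0.01. The share of cells with a Gzma UMI did not follow, at 14.1% and 14.2% of cells thinned to 1000 UMIs and 13.6% and 16.8% at 2000. Gzmb (chromosome 14, 56258838 to 56262260) had 2052 and 1402 CPM (0.55 [0.47 to 0.62], under the limit), and −0.58 without Trbv16 cells. Ifng, at 61.7 and 37.0 CPM, kept its ratio without them (0.73 [0.27 to 1.22] and 0.72), but not without dividing cells (−0.02). Tnf had 34.3 and 16.8 CPM (1.01 [0.36 to 1.75]) and Tnfsf10, the death ligand TRAIL, 27.8 and 11.4 CPM (1.25 [0.49 to 2.15]), and both stood under the limit without Trbv16 cells (0.56 and 0.51). Gzmf, the fifth, had 18.1 and 8.08 CPM, with 51.3% and 66.7% of its UMIs in 1 cell.

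On the lower side were Gzmc, with 48.7 CPM in Glut5 KO and 186 CPM in wildtype (−1.93 [−2.27 to −1.60]), of which 36.2% and 51.8% came from 1 cell, and the chemokine gene Xcl1 (142 and 223 CPM, −0.64). Xcl1 draws cross-presenting dendritic cells, and it stood at 0.31 without other types' transcripts. Serpinb6b had 90.01 and 199.9 CPM (−1.15 [−1.42 to −0.88]) and Serpinb9, which shields a killer cell from its own granzyme B, 95.1 and 173 CPM (−0.86 [−1.13 to −0.59]). Both were as low without Trbv16 cells (−1.38 and −1.03) and without other types' transcripts (−1.36 and −0.93). Gzmk (131 and 133 CPM, −0.01), Prf1 (106 and 118 CPM, −0.16) and Nkg7 (1846 and 1531 CPM, 0.27) were not called.

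Of 25 exhaustion and checkpoint genes, Lag3 and Ctla4 were higher, Cd200r1 was lower and the median was 0.21. Lag3 had 204 CPM in Glut5 KO and 98.9 CPM in wildtype (1.04 [0.77 to 1.32]), with a UMI in 63.9% of 202 and 47.8% of 134 cells. Ctla4 had 296 and 155 CPM (0.93 [0.71 to 1.15]), with a UMI in 78.7% and 58.2% of cells. Their ratios without Trbv16 cells were 0.69 and 0.59, and without other types' transcripts 0.90 and 0.64. Thinned to 1000 UMIs, Lag3 was found in 15.1% and 14.2% of CD8 cells, and Ctla4 in 25.1% and 14.9%. Other T cells of Glut5 KO also had more of both genes in CPM, as given above. Thinned to 1000 UMIs, Lag3 was in 11.0% of Glut5 KO and 3.04% of wildtype other T cells, and Ctla4 in 36.6% and 23.2%. The difference was thus not particular to CD8 cells. Phagocytes gave 7.34% and 6.02% for Lag3, and 0.68% and 0.18% for Ctla4, and phagocytes have Lag3 themselves. Thinned to 2000 UMIs, which leaves out 11 Glut5 KO and 3 wildtype CD8 cells, Lag3 was found in 33.0% [26.4 to 40.1] and 10.7% [5.97 to 17.3]. Ctla4 was found in 42.4% and 20.6%. The intervals of Lag3 were apart at 2000 UMIs and overlapped at 1000. Each depth is 1 random draw, and the wildtype Lag3 share was lower at 2000 UMIs than at 1000. The draws thus do not settle the size of the gap. Pdcd1 had 514 and 390 CPM (0.40 [0.25 to 0.54]) and 0.11 without Trbv16 cells, Havcr2 77.5 and 82.1 CPM (−0.09), Tigit 187 and 154 CPM (0.28) and Tox 185 and 134 CPM (0.46 [0.21 to 0.72]). Without Trbv16 cells Tox stood at 0.77 and Ikzf2, the gene of the transcription factor Helios, at 0.60, and 5 of 25 genes of the list were higher.

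Naive and memory genes split. Of 22, 6 were higher in Glut5 KO and 5 lower, with a median of 0.10. Klf2, a transcription factor that keeps T cells circulating, had 164 CPM in Glut5 KO and 277 CPM in wildtype (−0.76 [−0.96 to −0.55]), and its target S1pr1 (25.5 and 41.1 CPM, −0.68) was lower with it, as were Klf3 (−0.68) and Ccr7, the lymph-node chemokine receptor, with 184 and 286 CPM (−0.64). Without Trbv16 cells 1 gene of the list was still lower, and S1pr1 stood at −0.09. The higher genes were Ly6a and Ly6c2, surface proteins that interferon raises, with 1816 and 1116 CPM (0.70) and 2027 and 1273 CPM (0.67), Foxo1, a transcription factor of quiescent T cells, with 106 and 68.0 CPM (0.63), and 3 genes of under 20 CPM. Of these Dapl1 had 17.2 and 4.04 CPM (1.99 [0.83 to 3.62]) and Igfbp4 19.5 and 6.06 CPM (1.62), with 37.8% and 66.7% of the Glut5 KO UMIs in 1 cell. The share of cells with a Ly6c2 UMI did not follow its summed ratio, at 57.8% and 61.2% of CD8 cells thinned to 1000 UMIs. Phagocytes, with 31.0% and 19.6%, have Ly6c2 too. Tcf7 had 52.0 and 70.0 CPM (−0.43 [−0.83 to −0.03]), and −0.03 without Trbv16 cells.

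Receptor genes that CD8 cells share with NK cells were lower in Glut5 KO over all CD8 cells, and as a list near level without other types' transcripts. Of 16, 9 were lower and none higher, with a median of −0.68. Tyrobp, the adaptor of activating NK receptors, had 511 CPM in Glut5 KO and 1042 CPM in wildtype (−1.03 [−1.14 to −0.92]), and Fcer1g, another adaptor, 659 and 1115 CPM (−0.76). Klrd1, Klrc1 and Klrk1, the lectin receptors that activated CD8 cells also carry, were not called (0.04, 0.19 and −0.14). The 7 NK markers, all found in both libraries, summed to 1209 CPM in Glut5 KO and 2258 CPM in wildtype. Without other types' transcripts, where Ncr1, Klrb1c, Klra8 and Klra4 are at 0, the first pair because their UMIs were used to leave cells out, the markers summed to 486 and 657 CPM. There the median of the list was −0.05 over 10 genes, Fcer1g stood at −0.16 and Tyrobp still at −1.04. Phagocytes, with 3398 and 3453 CPM of Tyrobp, have more of it than CD8 cells.

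Costimulatory and homing receptors and regulators of the effector state gave few calls. Tnfrsf9 (4-1BB), at 150914562 to 150946102 on chromosome 4 and 0.799 Mb from Slc2a5, had 135 CPM in Glut5 KO and 349 CPM in wildtype (−1.37 [−1.58 to −1.16]), and −1.67 without Trbv16 cells. It and Cd84 were the 2 genes lower of 12 costimulatory receptors, with none higher. In other T cells Tnfrsf9 stood at −0.63. Of 18 effector regulators, Irf4, which T cell receptor signals raise, was higher (58.0 and 29.6 CPM, 0.96) with Il18r1, and Cx3cr1, Eomes and Irf8 were lower, at −1.55, −0.83 and −0.76. Cx3cr1 is also a microglial gene. Of 15 chemokine and homing receptors 4 were lower and none higher, and Cxcr6 (235 and 269 CPM, −0.19) and Cxcr3 (77.5 and 77.4 CPM) were level. T cell receptor signalling genes had a median of 0.22, with Themis and Cd6 higher of 21. Genes of metabolism gave few calls: of 18 of glycolysis none was called (median −0.03), of 41 of the respiratory chain 1 was lower (median −0.06), and of 10 of fructose and polyol use 2 were lower, among them Khk, the kinase that commits fructose to breakdown, with 9.74 and 17.5 CPM (−0.84) on 21 and 26 UMIs, against 26.7 and 27.2 CPM in phagocytes. Of 39 interferon-stimulated genes 4 were higher and 1 lower (median 0.03). With high class II MHC cells left out, 2 were higher and 10 lower of 38 (median −0.17), where 10.0% of all genes were higher and 10.8% lower.

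**Figure D5:**
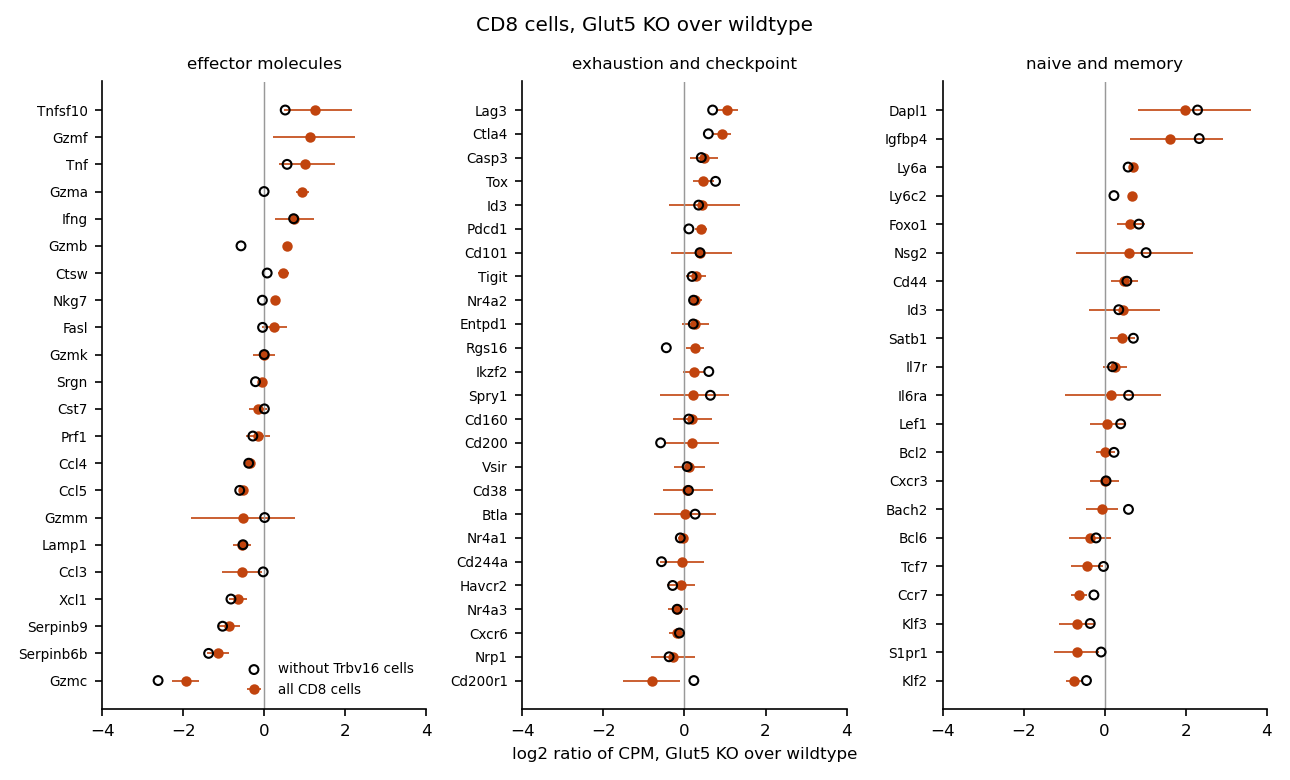
Log2 ratio of CPM in CD8 cells, Glut5 KO over wildtype, for genes of 3 lists, with exact 95% counting intervals cut at the axis limits of −4 and 4. Filled points use all CD8 cells and open circles leave out Trbv16 cells; Gzma and Gzmb move furthest among well-counted genes, to −0.01 and −0.58.

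The 12 genes with the highest ratios in CD8 cells, with at least 100 UMIs and 50 CPM in 1 library, were Slpi, Camk2b, Txndc5, Cenpe, Ly6d, Itga1, Cenpf, Kpna2, Prc1, Hist1h2ap, Zswim6 and Zbtb20, between 3.44 and 1.24. Cenpe, Cenpf, Kpna2, Prc1 and Hist1h2ap belong to division. Itga1, the alpha chain of a collagen receptor of tissue-resident T cells, had 62.2 CPM in Glut5 KO and 22.9 CPM in wildtype (1.43 [0.89 to 2.03]), with a UMI in 36.1% and 21.6% of cells, and 0.87 without Trbv16 cells. Slpi, a protease inhibitor, had 90.9 and 8.08 CPM, with 44.4% and 83.3% of its UMIs in 1 cell. Without other types' transcripts Slpi stood at −1.53 and Txndc5, a folding enzyme of secretory cells, at −0.37, so neither was higher there. The 12 lowest were Ccl1, Nrgn, Ccl6, Gzmc, Ms4a7, Il1r2, Tctex1d2, Cd63, Gatm, Plet1, Cyp4f18 and Tnfrsf9, between −5.84 and −1.37. Ccl1 had 2 UMIs in Glut5 KO and 98 in wildtype, 93.9% of them in 1 cell. Ccl6, Ms4a7, Cd63, Gatm and Cyp4f18 stood between 216 and 961 CPM in phagocytes of both libraries, above their level in CD8 cells, where the highest was Cd63 with 123 CPM in wildtype. Their part in the lower ratios was not tested.

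Within each library the CD8 cells were last split by PD-1 transcript, to see which genes go with it. A Pdcd1 UMI was found in 145 of 202 Glut5 KO and 96 of 134 wildtype CD8 cells, 71.8% and 71.6%. Those cells were deeper than the rest, with medians of 9658 against 5050 UMIs in Glut5 KO and 11636 against 7458.5 in wildtype, so the split is partly one by depth. In Glut5 KO it is also partly one by Trbv16: a Pdcd1 UMI was found in 64 of 67 Trbv16 cells (95.5%) and in 81 of 135 others (60.0%). In wildtype the counts were 16 of 18 and 80 of 116. The split was not repeated without Trbv16 cells. Over 7051 genes measured in both libraries, 6.41% were higher in both and 5.13% lower in both. Of 23 other exhaustion genes 11 were higher in both libraries and none lower, led by Rgs16, with 243 against 31.3 CPM in Glut5 KO and 206 against 37.6 CPM in wildtype (2.91 and 2.41), and with Tox at 1.38 and 1.66 and Lag3 at 2.10 and 1.09. Of 19 effector genes 6 were higher, with Gzmb at 2497 against 355 CPM in Glut5 KO and 1676 against 503 CPM in wildtype (2.81 and 1.73) and Prf1 at 2.07 and 1.37. Of 36 division genes 23 were higher, and 40.0% against 7.02% of cells were dividing in Glut5 KO and 22.9% against 10.5% in wildtype.

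The cells without a Pdcd1 UMI had the naive genes and the interferon genes. Of 17 naive and memory genes 8 were lower in the Pdcd1 cells of both libraries, among them Bach2, a repressor of effector genes, with 45.1 against 125 CPM in Glut5 KO and 44.7 against 130 CPM in wildtype (−1.47 and −1.54), Tcf7 (−1.09 and −1.16) and Lef1 (−1.91 and −1.14). Of 38 interferon-stimulated genes 14 were lower, such as Isg15, a ubiquitin-like modifier, with 762 against 1695 CPM and 924 against 1497 CPM (−1.15 and −0.70). Among cells with little class II MHC the numbers were 7 of 16 and 20 of 37, where 8.83% of all genes were higher and 4.71% lower.

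Genes within the same cell were compared in cells thinned to 1000 UMIs, with Trbv16 cells included. Of Glut5 KO cells with a Pdcd1 UMI 63.6% [51.9 to 74.3] had one of Gzmb, against 38.5% [29.9 to 47.8] of those without. In wildtype the shares were 45.7% [28.8 to 63.4] against 42.4% [32.5 to 52.8], not apart at this depth. Gzmk was in 14.6% [8.21 to 23.3] of Glut5 KO cells with Gzmb against 1.94% of those without, and in 15.5% [7.35 to 27.4] against 9.21% [3.78 to 18.1] in wildtype. Tcf7 was in 6.49% of cells with Pdcd1 against 3.28% of those without in Glut5 KO, and in 5.71% against 16.2% in wildtype, on 5 and 2 cells with both.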

How the data were processed

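The authors deposited raw UMI counts for 32285 genes in each barcode, per the file headers, from 10x 5' libraries, per the labels' protocols. The submitters' processing notes name Cell Ranger 3.1.0 with mm10, and the header of the matrix names cellranger 7.0.1. Neither gives the gene annotation or the handling of intron reads. Barcodes with at least 300 genes and under 10% mitochondrial UMIs were kept. No doublets were removed beyond the phagocyte limit, and the top 8% of Scrublet scores (rate 0.08) were removed as an alternative. Counts were summed over cells per library. Ratios have 0.5 added to each count and need 20 UMIs over both groups. Intervals are exact 95% Poisson, Clopper-Pearson or conditional binomial intervals. Thinning drew UMIs without replacement (seed 0). The ratios and intervals were tried on simulated Poisson counts with known folds. The simulation had no variation between cells, so it does not cover genes whose UMIs come from few cells. Python 3.11.15, numpy 2.4.6, scipy 1.17.1, pandas 2.3.3, scanpy 1.11.5 and matplotlib 3.10.9 were used.

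Named genes are the 12 highest and 12 lowest ratios with at least 100 UMIs and 50 CPM in 1 group, and members of the lists described. Mitochondrial, ribosomal, sex-linked, haemoglobin, predicted, receptor and immunoglobulin genes and markers of other classes were left out of the first. The CD8 rule, the gene lists and the comparisons were chosen with earlier results of these data known. Trbv16, the division limit and the cells without other types' transcripts were chosen after values had been seen. Results for some genes of the lists are not reported here.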

Additional observations from a re-analysis of the deposited data

Results flagged for a closer look

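Gzma, in summed UMIs, differed in direction between the libraries in the same comparison. The log2 ratio of CD8 over other T cells was 1.10 in Glut5 KO (575 against 268 CPM) and −1.35 in wildtype (301 against 765 CPM). The difference was not tested, since each library is 1 sample. Among cells without other types' transcripts the ratios were 3.43 and 0.08, and in Glut5 KO CD8 cells other than Trbv16 cells the ratio was 0.32. In Glut5 KO, 24.9% of the Gzma UMIs of CD8 cells came from 1 cell. Counted in cells thinned to 1000 UMIs the direction was the same in both, with 14.1% of CD8 against 8.47% of other T cells in Glut5 KO and 14.2% against 9.89% in wildtype.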

How the results depend on the processing

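No paired analysis was possible because there is 1 sample per genotype and the labels give no replicate numbers, and no replicate was left out for the same reason. The values below are log2 ratios or counts of genes. With other minimum counts or additions, the counts of genes moved: 5 UMIs gave 1635 higher and 1518 lower in Glut5 KO, and 381 higher and 663 lower in CD8 than in other T cells, 50 UMIs gave 541, 457, 114 and 201, and 5 added to each count gave 597 higher in Glut5 KO and 206 lower in CD8 cells. A mean of per-cell CPM gave 1678 higher in Glut5 KO, Ccr7 at 0.0109, Gzmf in Glut5 KO CD8 over other T cells at 0.29 and the division median of Glut5 KO CD8 over other T cells at 1.25.

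In Glut5 KO over wildtype, female cells alone (34 and 22) gave a CD8 share of T barcodes of −0.78, medians of 0.92 for exhaustion and −0.29 for division, and reversed Ahr (0.88), Ccr7 (0.43), Cd6 (−0.51), Gzma (−1.48), Hist1h2ap (−1.71), Il18r1 (−0.33), Il1r2 (0.0832), Kpna2 (−0.82), Mki67 (−0.70), Ms4a7 (0.72), Tyrobp (0.0030), Ube2c (−1.24) and Xcl1 (2.82). Male cells alone gave a division median of 1.02. Leaving out cells with 10 or more division UMIs per 10000 gave 521 genes higher, a division median of −0.37, Ahr at 0.0122, Cd6 at −0.0138, Gzma at −0.23 and Plet1 at 0.13. Leaving out those with 50 or more gave a median of −0.17, Ifng at −0.0166 and Ube2c at −0.59. Without Trbv16 cells the share of kept barcodes was 0.15, the division median 0.23, Cd200r1 0.23 and Gzma −0.0067. Without other types' transcripts Txndc5 was −0.37 and Xcl1 0.31. The share of kept barcodes was −0.0406 with no phagocyte limit and 0.90 with cells thinned to 1000 UMIs before selection.

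In CD8 over other T cells, Glut5 KO before wildtype, female cells alone gave effector medians of 0.27 and 0.48, division medians of 0.19 and 1.46, an exhaustion median of 0.16 in Glut5 KO, Gzma at −0.86 and 1.28, Hist1h2ae at −0.38 and Ifng at 1.08 in Glut5 KO, and 61 genes higher and 111 lower. In Glut5 KO the effector median was 0.0638 in male cells, −0.0501 with at least 3 UMIs in the selection (Gzmf 7.41) and 0.0125 against conventional CD4 cells, where division medians were 0.59 and 0.20, and in Glut5 KO Gzmf was 5.91 and Rgs16 −0.26. Leaving out cells with 10 or more division UMIs gave, in Glut5 KO, medians of −0.10 for division and −0.16 for naive genes, Gzma at −0.17, Gzmb at −0.22, Rgs16 at −0.10, Setbp1 at −0.0195, Btla at 0.0190 and Il6ra at 0.20. In wildtype it gave an effector median of 0.24, a naive median of 0.0038 and Il6ra at 0.0387, with 62 genes higher and 218 lower. At 50 or more the division median was 0.35 in Glut5 KO, with 104 genes higher. Without Trbv16 cells the medians in Glut5 KO were −0.14 for naive and 0.496 for division genes, with 152 genes higher. Without other types' transcripts effector medians were 0.44 and 0.29, the naive median −0.80 in Glut5 KO, Gzmc 0.55 and 4.87, Gzmf 6.74 in Glut5 KO and Gzma 0.0810 in wildtype. The cause of these moves was not tested. The alternatives with no phagocyte limit, without Trbv16 cells, without other types' transcripts and at 50 or more division UMIs were chosen after seeing the data.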
